A study of Mus musculus with 6 samples.

Results

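The Hox cluster genes are the homeobox transcription factor genes of the a, b, c and d clusters. They were taken here as every gene whose single annotated symbol is Hox, a cluster letter and a number. The arrays measured 33 of them, among 18193 genes with a single symbol, and 48 probe sets (groups of short oligonucleotides that read 1 transcript) stood behind the 33 genes. RefSeq lists 39 such genes, on chromosomes 6, 11, 15 and 2. The other 6 are not analysed here. A gene with several probe sets was represented by its brightest, judged by the mean log2 value of the 6 arrays.

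The cells were common myeloid progenitors (CMP) from the bone marrow of C57BL6 mice. They were sorted by H2-DCFDA, a dye that fluoresces when oxidised, into a low-ROS and a high-ROS group, where ROS are reactive oxygen species. Each gate held 15% to 20% of the CMP. Each group had 3 arrays, and both came from mice of the same strain, with no other treatment named. No age is given, nor whether a group's samples came from different mice or sorts, so p-values here measure spread among samples that may be only technical. The series asks what ROS do in the step from CMP to megakaryocyte-erythrocyte progenitors.

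Hox proteins bind DNA through a homeodomain, mostly together with TALE homeodomain partners of the Pbx and Meis families. The genes of a cluster lie side by side in the order in which they are used along the body axis. Trithorax-type complexes around Kmt2a keep them active and polycomb complexes keep them silent. In blood, Hoxa9, Hoxa10 and Hoxb4 are known from stem cells and early progenitors, their transcripts decline as cells mature, and forced Hoxa9 with Meis1 gives myeloid leukaemia.

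Median signals of the arrays lay between 40.4 and 42.5, and correlations between arrays over all genes between 0.975 and 0.991. The values carry no detection call, so values below the array median are called near background here. The outermost arrays on the first principal component were low-ROS replicate 1, at -25.8, and, at 36.6, high-ROS replicate 3. The ratio of 3' to 5' Gapdh signal, a measure of RNA integrity, was 2.54 to 3.19 in low-ROS and 2.997 to 4.53 in high-ROS CMP, highest on high-ROS replicate 3. The same ratio for Actb varied far less, from 0.976 to 1.05 in low-ROS and from 1.03 to 1.06 in high-ROS CMP. Markers of granulocyte-monocyte progenitors were above the array median on all 6 arrays for 9 of 9 genes. So were 6 of 6 markers of mature neutrophils, with summed signals of 45687 to 48901 in low-ROS and 45612 to 47136 in high-ROS CMP. The same held for 6 of 6 B cell markers (sums of 2349 to 2956 and 2196 to 2780), 4 of 4 of mast cells and basophils (1157 to 1263 and 1067 to 1299), 4 of 6 of T and NK cells (1289 to 1381 and 1293 to 1441) and 5 of 9 of stroma and endothelium (2160 to 3282 and 2385 to 2795). For each of these cell types other than the granulocyte-monocyte one, the summed signals of the groups overlapped. The neutrophil sum is mostly S100a8 and S100a9. All 6 neutrophil markers had lower means in high-ROS CMP, where 46.0% of all genes did. Groups were apart for 3 of them (Ltf, Mmp8 and Ngp), where 5.32% of all genes had groups apart and lower. The log2 fold changes of the 6 (high-ROS minus low-ROS) ran from -0.30 to -0.005, with 0.702 as the smallest adjusted p (limma). In such bulk samples, fewer cells of a type and less RNA per cell cannot be told apart.

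The promoters of the 4 genes on which the results turn are shown because Hoxa2 and Hoxa10 had an unadjusted p under 0.05 and Hoxa9 and Hoxb4 the signals that stood clear of background. RefSeq promoter sequences (GRCm38.p6) were found for 19 of the 33 members. Each line gives the 250 bases before an annotated start, on the strand of the gene, and Hoxa10 has 2 starts. Capitals mark matches, on either strand, to TGATNNAT, the composite motif of Hox with Pbx, and to TGACAG, the core motif of Meis proteins.
Hoxa2, chr6:52164832-52165081, minus strand: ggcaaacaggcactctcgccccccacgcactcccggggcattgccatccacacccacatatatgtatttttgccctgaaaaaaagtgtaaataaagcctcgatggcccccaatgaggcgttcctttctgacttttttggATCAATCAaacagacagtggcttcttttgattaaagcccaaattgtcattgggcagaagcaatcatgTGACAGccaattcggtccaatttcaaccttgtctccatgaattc
Hoxa9, chr6:52227371-52227620, minus strand: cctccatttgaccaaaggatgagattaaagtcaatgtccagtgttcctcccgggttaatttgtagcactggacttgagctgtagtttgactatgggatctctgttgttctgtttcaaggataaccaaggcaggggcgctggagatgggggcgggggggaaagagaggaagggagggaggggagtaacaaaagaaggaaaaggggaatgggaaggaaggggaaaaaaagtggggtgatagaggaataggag
Hoxa10, outer start, chr6:52240855-52241104, minus strand: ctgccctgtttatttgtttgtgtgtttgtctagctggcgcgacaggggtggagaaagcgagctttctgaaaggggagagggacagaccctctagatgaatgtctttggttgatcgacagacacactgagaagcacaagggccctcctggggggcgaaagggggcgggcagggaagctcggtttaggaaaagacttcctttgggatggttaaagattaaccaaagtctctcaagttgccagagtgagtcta
Hoxa10, inner start, chr6:52234940-52235189, minus strand: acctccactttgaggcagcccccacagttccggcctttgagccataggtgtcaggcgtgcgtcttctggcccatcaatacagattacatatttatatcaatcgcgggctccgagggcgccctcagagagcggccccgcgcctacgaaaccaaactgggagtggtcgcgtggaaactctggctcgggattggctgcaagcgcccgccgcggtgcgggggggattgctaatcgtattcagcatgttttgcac
Hoxb4, chr11:96318017-96318266, plus strand: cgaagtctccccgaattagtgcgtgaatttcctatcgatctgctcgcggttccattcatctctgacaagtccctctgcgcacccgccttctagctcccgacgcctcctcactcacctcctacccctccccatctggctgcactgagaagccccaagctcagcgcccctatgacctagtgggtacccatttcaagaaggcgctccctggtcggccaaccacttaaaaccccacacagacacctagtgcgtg
The Hoxa2 stretch held 1 match to each motif. That to TGATNNAT lay on the opposite strand, 104 to 111 bases before the start, and that to TGACAG on the strand of the gene, 39 to 44 bases before it. The other 4 stretches held neither. Of all 32851 promoters of this length, 7.68% held TGATNNAT and 15.9% TGACAG, against 4 and 2 of 24 promoters of 22 Hox genes. These include genes not measured here, such as Hoxb8, 1 of the 4. The stretches had 6 (Hoxa2), 3 (Hoxa9), 7 and 20 (Hoxa10, outer and inner start) and 14 (Hoxb4) CpG dinucleotides, with a median of 12.5 over the 24 Hox promoters and 6 over all. A match is a description of the letters only.

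Most Hox genes gave signals near background in CMP. Of the 33, 27 lay below the array median on all 6 arrays, with signals from 1 to 31.02, and 4 were above it on some arrays: Hoxa3 on 5, and Hoxa5, Hoxa10 and Hoxc6 on 1 each. Only Hoxa9 and Hoxb4 were above it on all 6. Over all genes, 51.3% were above the array median on all 6 arrays, and among the Hox genes 6.06%. All 8 members of the d cluster were below it on every array, as were 8 of 9 of the b cluster, 6 of 7 of the c cluster and 5 of 9 of the a cluster.

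**Figure D1:**
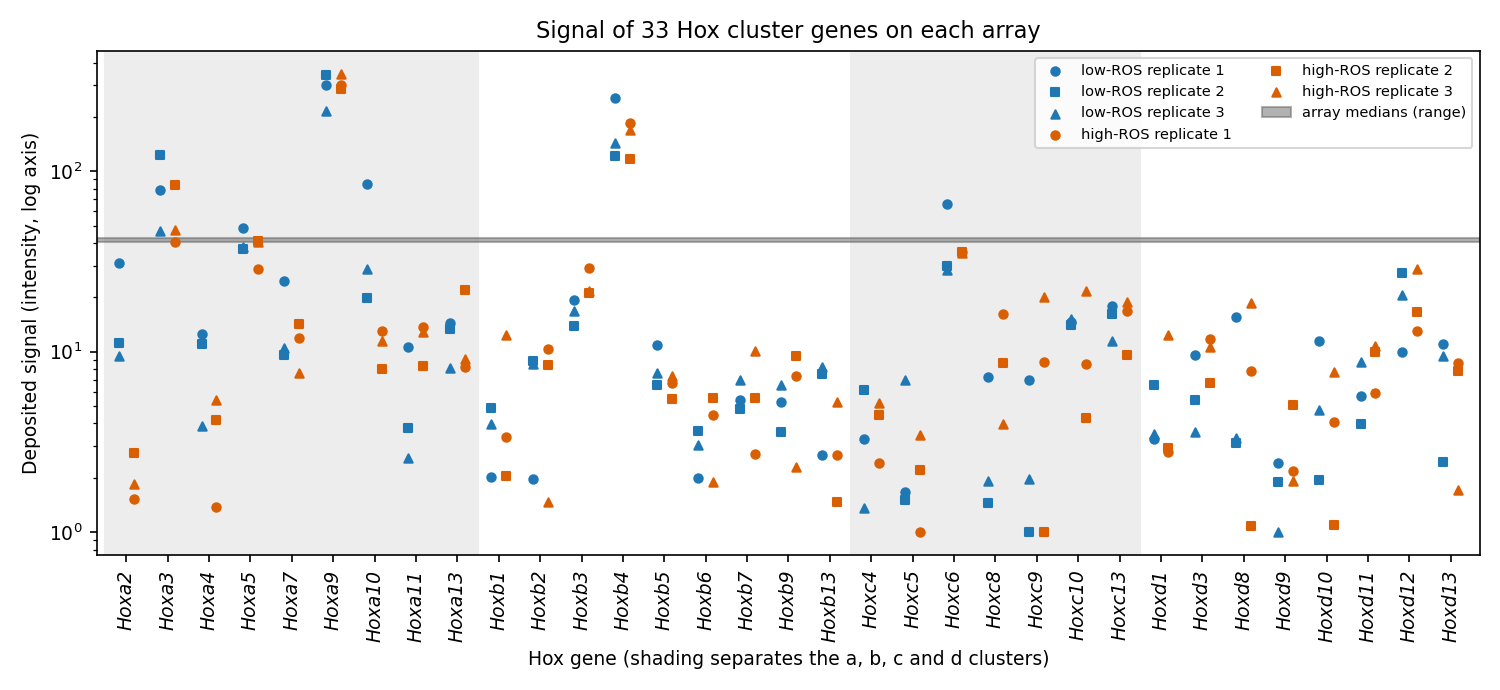
Deposited signal (log axis) of each of the 33 Hox genes on the 3 low-ROS (blue) and 3 high-ROS (orange) arrays, 1 point per array, with the range of the array medians (40.4 to 42.5) as a grey band. Hoxa9 and Hoxb4 lie above the band on all 6 arrays, and 27 genes lie below it on all 6.

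Between high-ROS and low-ROS CMP, no Hox gene passed the test. At an adjusted p under 0.05 (limma, Benjamini-Hochberg over all genes), 0 of 33 were lower and 0 higher, where 0.0385% of all genes were lower and 0.0165% higher, 0.0550% in all. At an unadjusted p under 0.05, 2 of 33 were lower, Hoxa2 and Hoxa10, and 0 were higher, where 3.37% of all genes were lower and 4.44% higher, 7.81% in all. The groups did not overlap for 3 members, Hoxa2 and Hoxa10 (lower in high-ROS CMP, as for 5.32% of all genes) and Hoxb3 (higher, as for 8.04%). These counts are close to the shares over all genes. The high-ROS mean lay under the low-ROS mean for 15 members and over it for 18. The middle log2 fold change (the median) was 0.01, against 0.02 over all genes, of which 46.0% were lower. Fold changes are on the scale of signal plus 16, which shrinks those of dim genes.

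By cluster, the a cluster had 6 of 9 members lower and a median log2 fold change of -0.16, the b cluster 3 of 9 lower and 0.01, the c cluster 4 of 7 lower and -0.01, and the d cluster 2 of 8 lower and 0.09. Both genes with an unadjusted p under 0.05 belong to the a cluster. Whether the clusters differ was not tested.

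**Figure D2:**
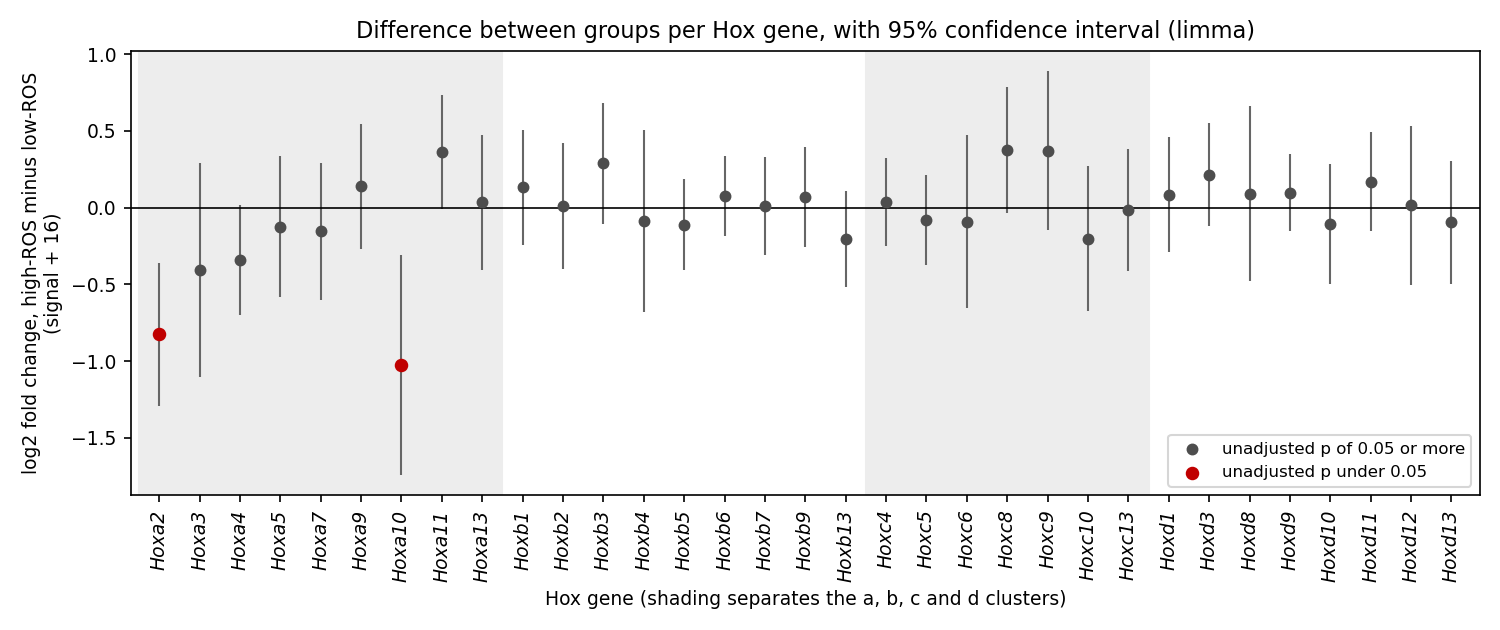
The log2 fold change (high-ROS minus low-ROS, signal plus 16) of each Hox gene, in cluster order, with its 95% confidence interval from limma over 3 against 3 arrays. Hoxa2 (-0.83) and Hoxa10 (-1.02), in red, have intervals below 0, and the other 31 intervals include 0.

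Hoxa10, a posterior a cluster gene active in stem cells and early progenitors, had the largest log2 fold change of the family on the scale of signal plus 16. With a pseudocount of 1 it was -1.69, smaller than that of Hoxa2, and with 64 it was -0.49. Low-ROS arrays 1, 2 and 3 read 84.9, 19.8 and 28.8, and high-ROS arrays 1, 2 and 3 read 13.1, 8.04 and 11.5 (the order kept for every gene below). The groups did not overlap, but 5 of the 6 values were below the array median and low-ROS replicate 1 stood far above the others. The mean was 44.5 ± 35.2 (SD, n = 3) in low-ROS CMP against 10.9 ± 2.57 in the high-ROS group. The log2 fold change was -1.02 (SE 0.325, 95% interval -1.74 to -0.31, limma unadjusted p = 0.0092, adjusted p = 0.553), 2.03-fold lower on the scale of signal plus 16. Without low-ROS replicate 1 the log2 fold change was -0.58 (limma adjusted p = 0.746), and it kept its sign in 15 of 15 alternative settings, with adjusted p from 0.383 to 0.771.

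Hoxa2, which patterns the hindbrain and the second pharyngeal arch of the embryo, had the smallest p of the family from signals that were all below the array median. They were 31.02, 11.2 and 9.49 in low-ROS and 1.52, 2.73 and 1.84 in high-ROS CMP. Each low-ROS value was above each high-ROS value, and low-ROS replicate 1 was again the highest. The means of 17.2 ± 12.0 and 2.03 ± 0.627 (SD, n = 3) gave a log2 fold change of -0.83 (SE 0.212, 95% interval -1.29 to -0.36, limma unadjusted p = 0.00244, adjusted p = 0.416). Its log2 fold change was -2.42 with a pseudocount of 1, -0.29 with 64 and -0.55 without low-ROS replicate 1 (limma adjusted p = 0.213, 0.545 and 0.511).

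Hoxa9, the a cluster gene best known for maintaining myeloid progenitors, was one of the 2 members with signals clear of background. It read 301, 340 and 217 in low-ROS and 302, 287 and 347 in high-ROS CMP. Low-ROS replicate 3 was the lowest and the groups overlapped. The means of 286 ± 62.9 and 312 ± 31.2 (SD, n = 3) differed by a log2 fold change of 0.14 (SE 0.185, 95% interval -0.27 to 0.55, limma adjusted p = 0.890). The interval leaves room for a change of either sign, and the sign turned in 3 of 16 alternative settings.

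Hoxb4, a b cluster gene known for expanding blood stem cells when overexpressed, was the other. Its signals were 255, 121 and 144 in low-ROS and 186, 117 and 169 in high-ROS CMP. Low-ROS replicate 1 was the highest of the 6, and the rest of the values were intermixed. The log2 fold change was -0.09 (SE 0.268, 95% interval -0.68 to 0.50, limma adjusted p = 0.962), and its sign turned in 5 of 16 alternative settings.

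Hoxa5, which acts in lung and skeletal patterning and in myeloid progenitors, lay around the array median at 48.4, 37.2 and 38.2 in low-ROS and 28.6, 41.2 and 40.3 in high-ROS CMP. The groups overlapped, with a log2 fold change of -0.12 (SE 0.210, limma adjusted p = 0.917). Its probe set is of a kind whose oligonucleotides may partly read other transcripts, as is that of Hoxa4 (-0.34, limma unadjusted p = 0.0590, adjusted p = 0.641). The other probe sets of Hoxa5 and Hoxa4 went the other way, at 0.16 and 0.14. Hoxa3, needed for the thymus and parathyroid, read 79.1, 123 and 46.4 in low-ROS and 40.4, 83.5 and 47.4 in high-ROS CMP, with groups that overlapped (log2 fold change -0.40, 95% interval -1.10 to 0.29). Its other, dimmer probe sets were at -0.26, 0.05 and 0.47. Hoxa7 was at -0.16, from signals of 7.58 to 24.6.

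Of the remaining genes, Hoxa11, a posterior gene of limb, kidney and uterus, had the smallest unadjusted p above 0.05, with 0.0552 and a log2 fold change of 0.36, from signals of 2.57 to 13.7. Hoxc8, a thoracic patterning gene, had 0.38 (signals of 1.44 to 16.2), and Hoxc9 0.37. Hoxb3, which neighbours Hoxb4, had signals of 19.3, 13.9 and 16.8 in low-ROS and 29.1, 21.2 and 21.6 in high-ROS CMP, with 0.29 as its log2 fold change (SE 0.179, limma unadjusted p = 0.136, adjusted p = 0.726). Its groups did not overlap, all below the array median. The other Hoxb3 probe set went the other way, at -0.23, with groups that overlapped. Over the 31 members other than Hoxa2 and Hoxa10, log2 fold changes ran from -0.40 to 0.38, and the smallest adjusted p was 0.638 (limma). Values this close to background give no reliable order.

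The highest values were unevenly spread over the arrays, among the Hox genes as among all genes. Low-ROS replicate 1 and high-ROS replicate 3 each held the highest signal of 10 of the 33 members, 30.3%, where they held the highest of 21.1% and 23.8% of all genes. In the a cluster, low-ROS replicate 1 was the highest for 5 of 9. These are also the outermost arrays of the first principal component, and their part in the Hox values was not tested. Without both, the log2 fold change was -0.60 for Hoxa10 and -0.54 for Hoxa2.

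Probe sets of one gene did not always lie in one direction. Of 11 members with more than 1 probe set, all probe sets of 3 (Hoxa10, Hoxd8 and Hoxd13) lay in one direction and those of 8 (72.7%) in both, where 59.9% of all 9010 genes with several probe sets did. The 8 were Hoxa3, Hoxa4, Hoxa5, Hoxa9, Hoxb3, Hoxb4, Hoxc5 and Hoxc6. Many of these differences are small and near background. With each of the 48 Hox probe sets tested alone, 0 passed an adjusted p under 0.05 (limma, smallest 0.522), where 0.0200% of all probe sets passed. At an unadjusted p under 0.05, 3 were lower and 2 higher, where 7.31% of all probe sets had such a p in either direction. The 2 higher ones, of Hoxa3 (0.47) and Hoxc6 (0.37), were below the array median on every array and opposite in sign to the chosen ones. The dimmer probe set of Hoxa9 read 46.5, 65.1 and 29.6 in low-ROS and 28.8, 18.1 and 24.9 in high-ROS CMP, with groups that did not overlap (log2 fold change -0.63, SE 0.252, limma unadjusted p = 0.0302, adjusted p = 0.655). That is opposite in sign to the brighter one, which stands for the gene above. The dimmer one of Hoxb4 read 38.3, 43.4 and 44.2 in low-ROS and 69.5, 45.9 and 65.4 in high-ROS CMP, also without overlap and also opposite in sign to the chosen one (0.38, SE 0.220, limma adjusted p = 0.728). In all, 3 Hox probe sets had groups apart and lower in high-ROS CMP and 3 apart and higher, where 5.95% and 7.21% of all probe sets did. Whether the probe sets of a gene differ in their change was not tested.

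**Figure D3:**
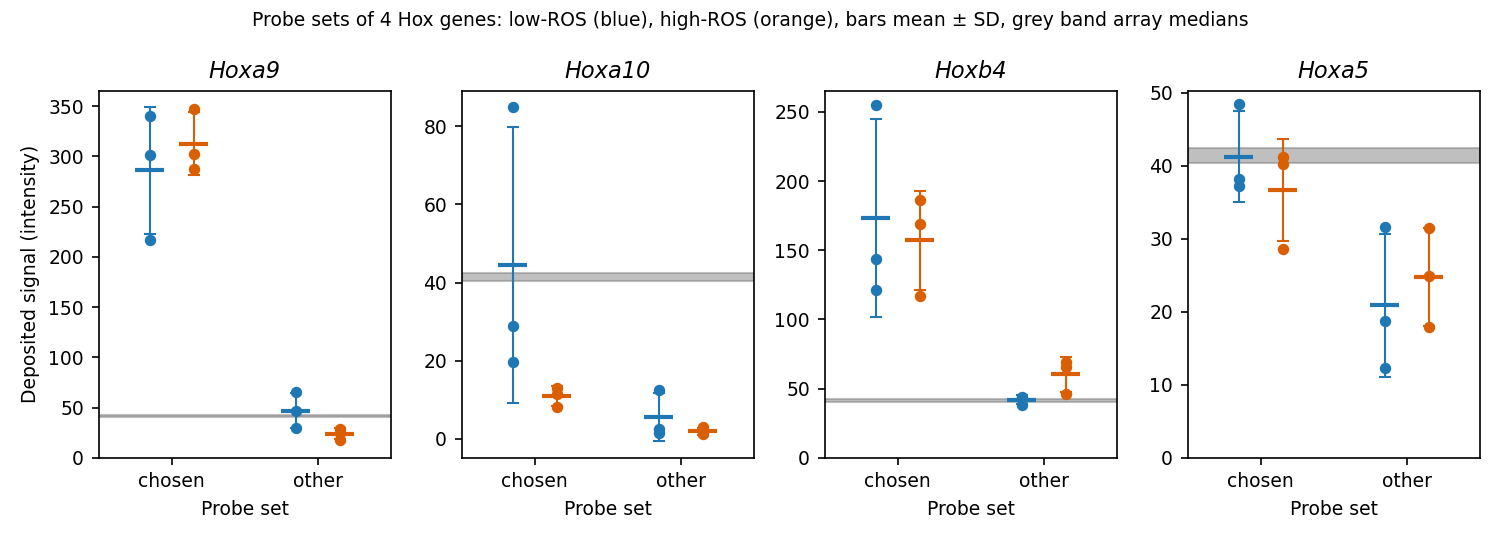
Deposited signal of the chosen and the other probe set of Hoxa9, Hoxa10, Hoxb4 and Hoxa5 on each low-ROS (blue) and high-ROS (orange) array, with mean ± SD (n = 3) and the array medians as a grey band. The dimmer Hoxa9 probe set is lower in high-ROS CMP (log2 fold change -0.63) while the brighter one is not (0.14).

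Genes of the TALE family mostly had lower means in high-ROS CMP. The list holds the repressors Tgif1 and Tgif2 beside the Pbx and Meis partners of Hox proteins. Of 10 measured TALE genes, the mean log2 value was lower in high-ROS CMP for 9 and higher for 1, where 46.0% of all genes were lower. The median log2 fold change was -0.29, and 0 passed an adjusted p under 0.05 (limma). At an unadjusted p under 0.05, 3 were lower, where 3.37% of all genes were, and 1 was higher, where 4.44% were. Meis1, the cofactor that acts with Hoxa9, read 164, 250 and 251 in low-ROS and 105, 117 and 194 in high-ROS CMP. Its groups overlapped through low-ROS replicate 1 and high-ROS replicate 3, with a log2 fold change of -0.64 (SE 0.248, limma unadjusted p = 0.0262, adjusted p = 0.587).

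The groups did not overlap for the TALE repressors Tgif1 and Tgif2, both lower, and for Pbx3, higher, where 5.32% and 8.04% of all genes did so. Tgif1 read 325, 409 and 468 in low-ROS and 234, 303 and 289 in high-ROS CMP (log2 fold change -0.51, SE 0.176, limma adjusted p = 0.568). Tgif2 read 729, 881 and 895 against 603, 616 and 689 (-0.38, SE 0.129, limma adjusted p = 0.568). Pbx3, a Pbx partner, was the exception, at 13.7, 42.3 and 44.6 in low-ROS and 58.01, 55.0 and 74.0 in high-ROS CMP (0.72, SE 0.286, limma adjusted p = 0.591). Pbx2 and Pbx4 hardly differed (log2 fold changes of -0.003 and -0.06), and Meis2 and Meis3 lay below the array median on every array.

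No gene that sets Hox chromatin passed the test. Of 18 measured trithorax-side activators, 11 were lower and 7 higher. Their median log2 fold change was -0.07, and 0 passed (limma). The groups did not overlap for Kdm6b, lower, and for Mllt1, higher (log2 fold change 0.30), against 5.32% and 8.04% of all genes. Kdm6b, a demethylase that removes the polycomb mark, had the smallest p: it read 1807, 1643 and 1817 in low-ROS and 1290, 1193 and 1315 in high-ROS CMP, with groups well apart (log2 fold change -0.47, SE 0.0995, limma unadjusted p = 0.000652, adjusted p = 0.252). The scaffold Hcfc1 had -0.45 and Kdm6a, related to Kdm6b, -0.31, with groups that overlapped. Without high-ROS replicate 3 they were at -0.17 and -0.11. Kmt2a, the methyltransferase that maintains Hox transcription, had -0.21 (SE 0.182, limma adjusted p = 0.808) and -0.09 without high-ROS replicate 3. With the Gapdh ratio as a covariate the signs of all 3 turned, to 0.10 for Kmt2a, 0.01 for Hcfc1 and 0.08 for Kdm6a. With probe sets averaged per gene, Kdm6b was at -0.62, Kmt2a at -0.30, Kdm6a at -0.17 and Hcfc1 at -0.13.

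Of 19 measured polycomb genes, 8 were lower and 11 higher, with a median of 0.06, and 0 passed. Jarid2, which helps to recruit polycomb complex 2, read 1046, 932 and 1023 in low-ROS and 714, 855 and 641 in high-ROS CMP (log2 fold change -0.44, SE 0.132, limma adjusted p = 0.513). Phc2, of polycomb complex 1, read 162, 183 and 201 against 261, 233 and 313 (0.52, SE 0.176, limma adjusted p = 0.568). Asxl1 had 0.26, and 0.11 without low-ROS replicate 3. With probe sets averaged per gene, Jarid2 was at -0.14, Phc2 at 0.29 and Asxl1 at 0.23. The groups did not overlap for 2 polycomb genes that were lower, Jarid2 and Cbx7, and 2 that were higher, Phc1 and Phc2, again against 5.32% and 8.04% of all genes. Cdx1, Cdx2 and Cdx4, homeobox factors upstream of the Hox clusters, were all below the array median on every array, with log2 fold changes of 0.17, 0.14 and 0.05.

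Genes named in the literature as targets of Hoxa9 and Meis1 were lower for 12 of 14, where 46.0% of all genes were. The median log2 fold change was -0.26, and 3 had groups apart and lower, against 5.32% of all genes. The list was written with earlier results of these data known, so its direction is no independent evidence. Of its genes, 1 passed, Angpt1, where 0.0385% of all genes passed as lower. This ligand of the receptor Tek fell from 933, 958 and 914 in low-ROS to 436, 429 and 413 in high-ROS CMP (log2 fold change -1.11, SE 0.117, limma adjusted p = 0.00729). Leaving out any 1 array but high-ROS replicate 3 ended this call, with limma adjusted p from 0.0502 (without high-ROS replicate 2) to 0.105 (without low-ROS replicate 2) and log2 fold changes from -1.12 to -1.09. The call was also lost with the Gapdh ratio as a covariate (limma adjusted p = 0.0710) and with no mean-variance trend (0.0575), and held in 9 of 16 alternative settings. Msi2, an RNA-binding protein of stem cells, had -0.49 and Mecom, a stem cell transcription factor, -0.68 (limma adjusted p = 0.568 and 0.587). With probe sets averaged per gene, Angpt1 was at -1.32, Msi2 at -0.31 and Mecom at -0.13. Flt3 and Cd34 had higher means, with 0.56 and 0.40 as log2 fold changes.

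**Figure D4:**
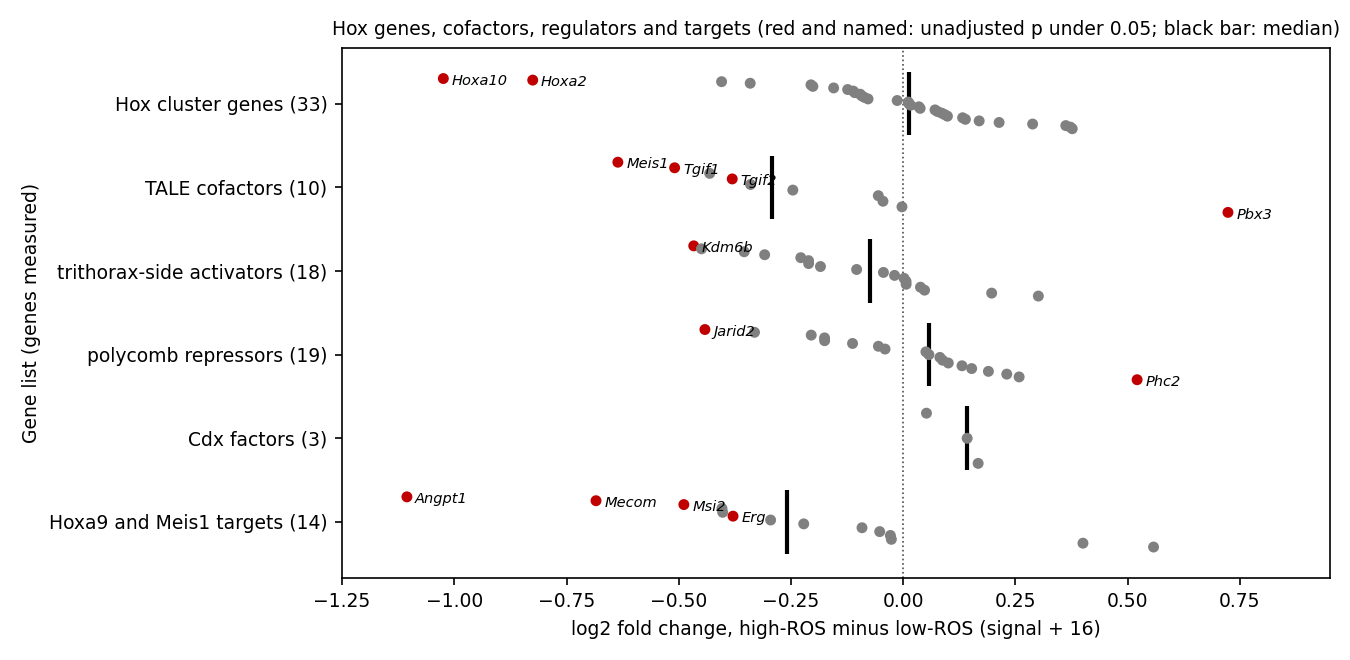
The log2 fold changes (high-ROS minus low-ROS, signal plus 16) of the Hox genes and of 5 lists of cofactors, regulators, upstream factors and targets, 1 point per gene, with the list median as a black bar. The Hox median is 0.01, that of the TALE cofactors -0.29, and genes with an unadjusted p under 0.05 are red and named.

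Most markers of stem cells also had lower means in high-ROS CMP. Of 13 measured markers of stem and multipotent progenitors, 11 did, where 46.0% of all genes did. The median log2 fold change was -0.64, and 1, Angpt1, passed the test (limma), where 0.0385% of all genes passed as lower. Their summed signal was 3573 to 3728 in low-ROS and 2498 to 2723 in high-ROS CMP. Meis1, Mecom, Angpt1, Kit, Cd34 and Mllt3 stand on both this list and one of those of cofactors, activators or targets. Groups were apart and lower for 6 of the 13, as for 5.32% of all genes, and overlapped for 7. Among those 7, Procr and Cd34 had higher means (log2 fold changes of 0.05 and 0.40). Tek and Hlf, both with groups apart, were above the array median on 5 and 6 of the 6 arrays. They had log2 fold changes of -2.07 and -0.60 (limma adjusted p = 0.0643 and 0.552). Slamf1 and Fgd5 were below the array median on 5 and 6 of the 6 arrays, with log2 fold changes of -1.18 and -0.86 (limma adjusted p = 0.305 and 0.436). Fgd5 read as low as 1.11, near the lowest value on the arrays (0.8). The part of such cells in the Hox values was not tested. Megakaryocyte markers had lower means for 6 of 9 and higher means for 3, with groups that overlapped for 6. Their summed signals, mostly those of Pf4 and Fli1, were 2584 to 2610 in low-ROS and 1795 to 1852 in high-ROS CMP. Those of erythroid markers, mostly of Slc4a1, Car2 and Tfrc, were 15255 to 15435 and 12132 to 13836. Granulocyte-monocyte markers, mostly Mpo, Elane, Ctsg and Prtn3, had 16765 to 17346 and 18697 to 20496, the reverse order. Groups overlapped for 5 of the 8 erythroid and 4 of the 9 granulocyte-monocyte markers, where 13.4% of all genes had groups apart. None of these 4 sums overlapped between the groups.

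Among 8157 genes with a mean signal of at least 100, those whose levels over the 6 arrays were most like Hoxa2 were Wdr26, Pfkp, Fosl2, Cxcr4 and Snapc3, with Pearson correlations of 0.977 to 0.991 and Spearman correlations of 0.771 to 1 as a description. The 6 arrays share their 2 groups and the high value of Hoxa2 on low-ROS replicate 1.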

How the data were processed

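Total RNA of sorted CMP was amplified, labelled with biotin and read on one-colour arrays, per the labels' protocols. The deposited values are 1 linear intensity per probe set and array for 45101 probe sets. The method by which the authors summarised and scaled these intensity values is not stated in the sources used. Probe sets were named from the platform's annotation table: 34945 had 1 symbol, 932 several, 9160 were not listed and 64 were controls. A pseudocount of 16 was added before log2. All 18193 genes were fitted together with limma 3.58.1 in R 4.3.3 (lmFit, eBayes with a mean-variance trend, 2-sided), 3 arrays against 3, with Benjamini-Hochberg adjustment. The steps were tested on simulated data of independent normal values, which does not tell how small a Hox difference these arrays could find. An exact permutation test of 3 against 3 cannot go below 0.1, so none was run. Python 3.11.15 with matplotlib 3.10.9 made the figures.

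Named by rule were Hox genes with an unadjusted p under 0.05 or a group mean of at least 100, Hoxa9, Hoxa10, Hoxb4 and Hoxa5, the 3 members of each other list with the smallest p, Meis1, Kmt2a and Cdx4, and the 5 genes most like the Hox gene of smallest p. Any other gene was named with its values in view. The members and lists were chosen with earlier results of these data known. The number of arrays limits the precision.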

Additional observations from a re-analysis of the deposited data

How the results depend on the processing

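No Hox gene passed an adjusted p under 0.05 in any of 16 alternative settings, nor one under 0.1, and the smallest adjusted p of a Hox gene in any setting was 0.213. Hoxa2 and Hoxa10 kept an unadjusted p under 0.05 in all 15 settings that kept them. Only Hoxa9 and Hoxb4 passed a filter on genes above the median signal, so that setting left 0 Hox genes lower at an unadjusted p under 0.05, 1 with a lower mean and 1 with a higher mean. At an unadjusted p under 0.05, Hox genes counted as lower were 4 with array weights, 5 with the Gapdh ratio as a covariate and 4 without the 2 outermost arrays of the first principal component. Those counted as higher were 1 with probe sets averaged per gene, 2 with the replicate block, 3 with array weights and 2 without both outermost arrays. Leaving out 1 array gave 2 to 3 lower and 0 to 2 higher. With the Gapdh covariate, 11 Hox genes had a higher mean and the median log2 fold change was -0.14. Leave-one-out medians ran from -0.090 (without high-ROS replicate 3) to 0.048 (without low-ROS replicate 1), with 11 to 20 members lower and 13 to 22 higher. The cause was not tested.

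Over all genes, 7 passed as lower and 3 as higher. The counts were 0 and 0 with no mean-variance trend (522 and 829 at an unadjusted p under 0.05), 12 and 5 above the median signal, 10 and 5 with a pseudocount of 1, 4 and 0 with 64, 17 and 13 with array weights, 3 and 0 with the Gapdh covariate and 4 and 0 without both outermost arrays. Leaving out 1 array gave 1 to 6 lower and 0 higher. With the replicate number as a block they were 4 and 0. The labels do not say that a number marks a shared mouse or sort. Deviations of same-numbered arrays correlated at 0.119, 0.0966 and 0.00275 (replicates 1, 2 and 3), those of differently numbered arrays at -0.126 to 0.0606. Arrays of replicates 1 and 2 thus correlated best with their own number, and those of replicate 3 did not. Whether the numbers mark pairs cannot be told from this, so the test above used no block.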

Other observations

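Probe sets that carry 2 Hox names, for Hoxb8 with Hoxb7 and for Hoxd4 with Hoxd3, gave signals of 1 to 6.73 on the 6 arrays, below every array median. Probe sets of the antisense transcripts Hoxa11os, Hoxb5os and Hoxd3os1, which lie in the clusters, gave 1 to 20.6, also below every array median.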
